A study of Mus musculus with 6 samples.

Results

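The collagen lysyl and prolyl hydroxylases are the enzymes that hydroxylate lysine and proline residues of procollagen in the endoplasmic reticulum. They were examined in a mouse beta cell line after transfection of a small interfering RNA against a circular RNA. The family was chosen from its gene symbols, Plod1, Plod2, Plod3, P4ha1, P4ha2, P4ha3 and P4hb, after the difference in Plod3 between the groups had been seen. The change between the groups is therefore given as a description. Where a gene passed or missed the threshold used for the whole table, that is stated to place it among all genes and is no independent test of the family. All 7 genes were measured, out of 25762 genes and unnamed transcripts tested, and 10 of the 31362 probes kept belonged to them. Plod1, P4ha1 and P4ha3 had 2 probes each and the other genes 1 each. All 10 probes were well above background on all 6 arrays.

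Plod3 signal was 2.26-fold lower after circHIPK3 siRNA, with all 3 treated arrays below all 3 control arrays. Plod3 was the 1 member among the genes called over the whole table, a call lost in 8 of 17 other settings. The brighter Plod1 probe had a change of -0.72 on the log2 scale and the second Plod1 probe one of 0.19, neither of them called. Plod1 was called in 6 of 17 other settings, but not with its probes averaged. Plod2 and the catalytic prolyl hydroxylase genes P4ha1 and P4ha2 had changes between 0.26 and 0.37 by their brighter probes, and none of them was called. P4hb, the shared subunit, differed by -0.23 with overlapping groups. Among 13 measured genes listed for procollagen modification, folding and related steps, Crtap was called lower and no gene higher, where 1.17% of all genes were called. The Crtap call was lost in 9 of 17 other settings.

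The samples were MIN6B1 cells, a mouse insulinoma line that keeps insulin secretion and serves as a beta cell model. The control group, siGFP, received an siRNA (small interfering RNA) against green fluorescent protein. The treated group received an siRNA against circHIPK3, a circular RNA spliced from Hipk3. Both groups had the same medium and the same lipid transfection reagent for 48 h, with 3 samples each and 1 single-colour Agilent array per sample. The design asks which messenger RNAs differ between cells given these siRNAs. Silencing of the circular RNA and other effects of the siRNA against it cannot be told apart. Nothing in the labels says whether replicates were separate cultures, so p-values speak for the scatter among these samples alone, part of which may be technical. As a cell line, the model lacks the stromal neighbours of an islet.

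Fibrillar and basement membrane collagens can leave the cell as stable triple helices only after hydroxylation. Prolyl 4-hydroxylase is a tetramer of catalytic alpha subunits, encoded by P4ha1, P4ha2 and P4ha3, and beta subunits, encoded by P4hb, and its product 4-hydroxyproline stabilises the helix. The lysyl hydroxylases encoded by Plod1, Plod2 and Plod3 make hydroxylysine, which carries sugars and takes part in crosslinks, and the Plod3 product can also attach those sugars. These hydroxylases use iron, oxygen, ascorbate and 2-oxoglutarate. Beta cells make little matrix themselves, and the same endoplasmic reticulum folds proinsulin.

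Arrays were alike in brightness, with 75th percentiles of 2939 to 3669 signal units and 77.6% to 83.4% of probes detected well above background. One scanned slide carried all 3 controls together with circHIPK3 siRNA replicate 1, and circHIPK3 siRNA replicates 2 and 3 were on a second slide, so slide and group are partly confounded. With 6 arrays, their number limits the precision. Hipk3 itself read 2.69, 2.96 and 2.78 on the siGFP arrays and 2.53, 2.89 and 2.51 on the circHIPK3 siRNA arrays, as log2 signal relative to the array's 75th percentile. Those ranges overlapped, at a change of -0.17 ± 0.14 (SE), and a second Hipk3 probe gave -0.31 ± 0.12 (SE). Since it is not known here whether either probe lies in the exon that forms the circle, they check neither the silencing nor the labels. Of 14 beta cell markers all 14 were well above background and none was called. Of 10 fibroblast and stellate cell markers 4 were (Dcn, Thy1, Vim and Acta2), and Lum, Pdgfra, Pdgfrb, Fap, Postn and Fn1 were not. The summed linear signal of those 10 lay between 0.195 and 0.271 times the 75th percentile in siGFP arrays and between 0.223 and 0.300 in circHIPK3 siRNA arrays, none of the 4 was called (lowest limma adjusted p = 0.165), and their part in the results below was not tested. Well above background were 4 of 6 alpha, delta and PP cell markers, 2 of 5 endothelial cell markers and all 4 leukocyte markers on the array. In siGFP arrays the summed signals were 16.8 to 30.4, 1.66 to 2.13 and 3.01 to 3.58 times the 75th percentile, in that order. In circHIPK3 siRNA arrays they were 11.5 to 20.9, 1.85 to 2.21 and 2.48 to 3.97. No marker of these cell types was called (lowest limma adjusted p = 0.209), and their part in the results was not tested.

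The start regions of 6 of the 7 genes could be matched by symbol to RefSeq windows of build GRCm38.p6, which run from 250 bases before to 50 bases after the transcription start. Those of 3 genes are shown 5′ to 3′, because their probes gave the 3 kinds of result in the family: Plod3 was lower, Plod1 had probes that disagreed, and P4ha1 had changes of 0.37 and 0.39 by its probes without being called. Capitals mark ACGTG on either strand, a form of the core letters of hypoxia response elements. It was searched because prolyl and lysyl hydroxylase genes are known targets of hypoxia-inducible factor. GCGTG, another form of that core, was not searched and is left unmarked, though it occurs in the 3 windows shown.

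Plod3 (chr5:136986769-136987068, plus strand): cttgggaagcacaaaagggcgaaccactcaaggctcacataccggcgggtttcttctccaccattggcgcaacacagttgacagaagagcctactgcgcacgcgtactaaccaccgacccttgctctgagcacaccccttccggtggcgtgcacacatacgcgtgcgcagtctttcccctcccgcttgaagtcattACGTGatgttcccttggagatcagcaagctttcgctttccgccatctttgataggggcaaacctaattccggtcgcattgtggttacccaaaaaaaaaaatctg

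Plod1 (chr4:147936727-147937026, minus strand): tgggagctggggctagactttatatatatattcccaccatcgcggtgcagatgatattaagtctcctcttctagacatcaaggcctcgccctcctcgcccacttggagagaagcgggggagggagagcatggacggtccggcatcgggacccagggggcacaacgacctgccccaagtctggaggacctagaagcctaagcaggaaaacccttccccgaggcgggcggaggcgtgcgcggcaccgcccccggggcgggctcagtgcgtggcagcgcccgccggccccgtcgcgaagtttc

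P4ha1 (chr10:59323046-59323345, plus strand): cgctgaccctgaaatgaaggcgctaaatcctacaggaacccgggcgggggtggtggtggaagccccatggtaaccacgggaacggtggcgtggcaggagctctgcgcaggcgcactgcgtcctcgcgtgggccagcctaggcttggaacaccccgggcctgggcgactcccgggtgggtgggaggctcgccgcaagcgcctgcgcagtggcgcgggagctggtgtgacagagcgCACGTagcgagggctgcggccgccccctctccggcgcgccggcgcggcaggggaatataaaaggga

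ACGTG or its reverse complement stood once in the Plod3 window and once in that of P4ha1. It stood 2 times each in those of P4ha2 and P4hb, and the letters were not found in the windows of Plod1 and P4ha3. Of 32851 RefSeq windows of the same length, 19.6% held it. TATAAA or its reverse complement stood in the windows of Plod1 and P4ha1 and in 13.6% of all windows. The Plod3 window held 53.3% G and C, near the median of 52.7% over all windows, and those of the other 5 members held 64.3% to 70.3%, above the upper quartile of 61.7%. These matches describe letters and not binding.

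The Plod3 window overlaps by 214 bases the window of a start of Znhit1, which is transcribed from the other strand, and the 2 annotated starts lie 115 bases apart. Among 27026 genes with a window, 11.9% share bases with a gene of the opposite strand in this way. Znhit1, which encodes a zinc finger protein of a chromatin remodelling complex, read 1.56, 1.52 and 1.74 on the siGFP arrays and 1.74, 1.62 and 1.38 on the circHIPK3 siRNA arrays. The groups overlapped, the change was -0.03 ± 0.13 (SE) with a limma adjusted p of 0.917, and its sign turned between settings. Its second probe gave 0.05 ± 0.11 (SE). On the other side of Plod3 lies Vgf, which encodes a granule peptide precursor, with a change of -0.08 ± 0.13 (SE, limma adjusted p = 0.745). Both neighbours thus had changes smaller than their standard errors.

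Signals are given as log2 of the processed intensity relative to the array's 75th percentile, and changes as circHIPK3 siRNA minus siGFP on the log2 scale. A gene was called at a limma adjusted p below 0.05, with adjustment over all 25762 genes and unnamed transcripts, and 301 genes were called (1.17%), of which 165 were lower (0.64% of those tested) and 136 higher. That balance depended on the scaling, with 202 lower and 42 higher after quantile normalization, 409 and 198 after median scaling, 250 and 48 after normexp background correction, and 151 and 34 in the authors' value table. Over all genes the median change was 0.08, and scaling by the array median instead moved it by -0.11. Changes relative to the median of all genes are therefore given as well. Among the hydroxylase genes 1 of 7 was called, in the lower direction. Since the contrast chose the family, that count is not evidence about it.

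The lysyl hydroxylase genes did not move together. Plod3 read 1.56, 1.39 and 1.75 on siGFP replicates 1 to 3 and 0.41, 0.31 and 0.45 on circHIPK3 siRNA replicates 1 to 3. The gap between the lowest control and the highest treated array was wider than the spread within either group. The mean signal was 1.57 ± 0.18 (SD, n = 3) in controls and 0.39 ± 0.07 (SD, n = 3) in treated cells. The fitted change was -1.18 ± 0.12 (SE), or -1.26 relative to the median of all genes. In bulk RNA, fewer cells with the transcript and less transcript per cell cannot be told apart. On the slide that held both groups, circHIPK3 siRNA replicate 1 stood at 0.41 against 1.39 to 1.75 for its 3 siGFP neighbours. The fit with slide as a fixed block gave -1.16 from these same arrays, since the second slide held no control. For every gene, the change in that fit rests on this 1 treated array. Over 17 other settings the Plod3 change lay between -1.29 and -1.09, and Plod3 was called in 9 of them. Among these is the setting without circHIPK3 siRNA replicate 1, which puts the groups on separate slides. The call was lost without filtering dim probes (-1.18), with slide as a fixed block and with the replicate number as a block (-1.18). It was also lost on leaving out siGFP replicate 1 (-1.18), 2 (-1.27) or 3 (-1.09) or circHIPK3 siRNA replicate 2 (-1.14) or 3 (-1.21), settings that left 0 genes called in the whole table, or 1 without circHIPK3 siRNA replicate 2. All of these rest on 1 probe, A_51_P372172.

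**Figure D1:**
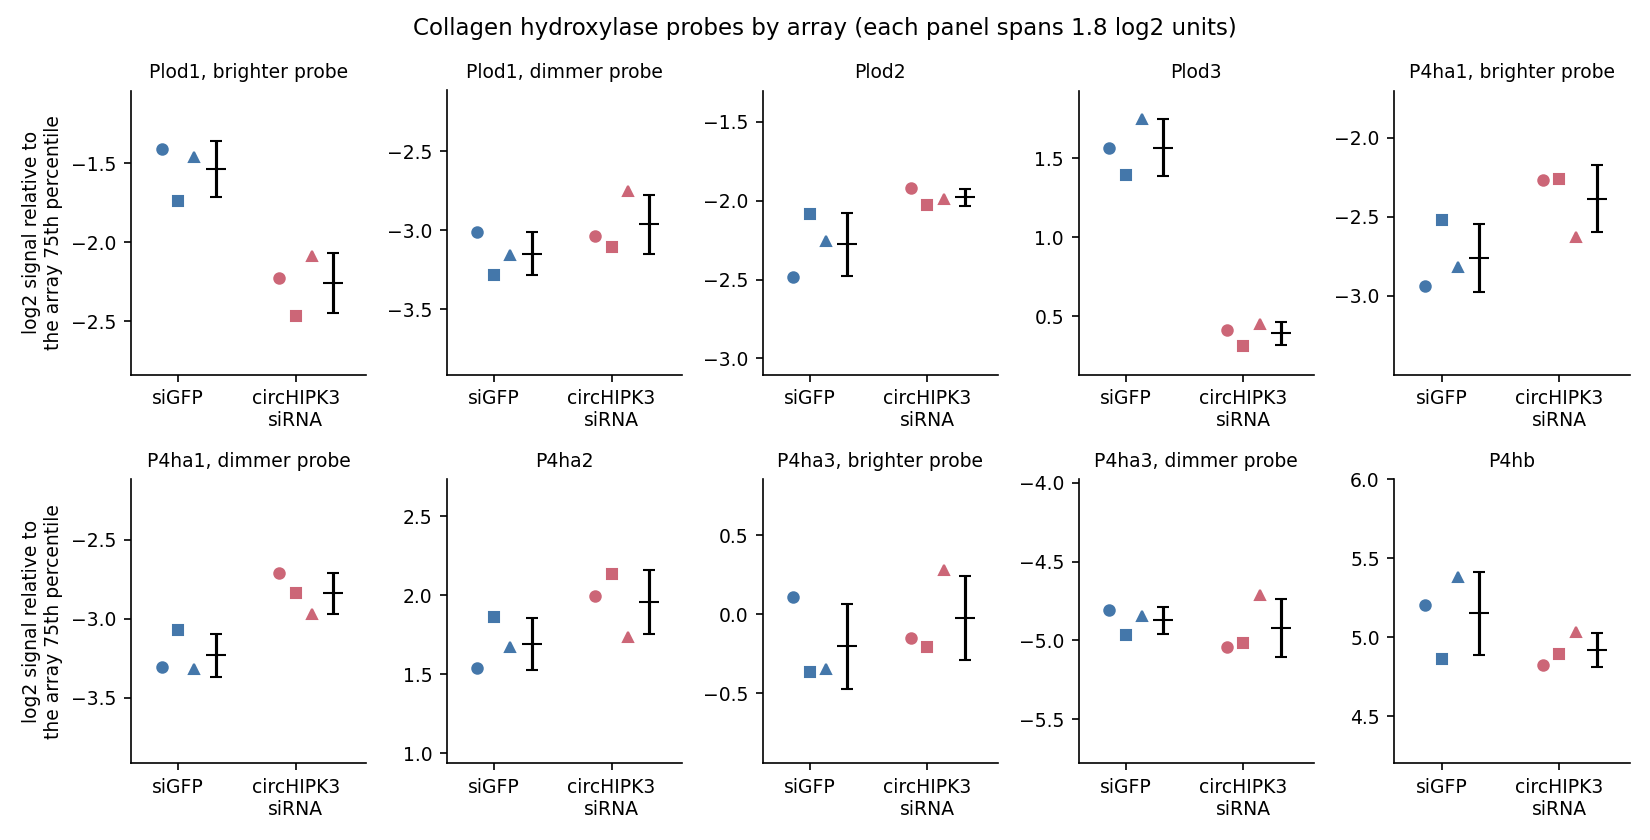
Log2 signal relative to the array's 75th percentile for the 10 probes of the 7 genes. Points are single arrays (circle, square and triangle for replicates 1, 2 and 3), and black bars are the mean and SD of 3 arrays. Each panel has its own range of equal height, so levels are not comparable between panels. The Plod3 arrays separate by group, at 1.39 to 1.75 against 0.31 to 0.45, whereas P4ha2, P4ha3 and P4hb overlap.

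Plod1, whose product hydroxylates lysines within the helical domain, was read by probes that disagreed. The brighter one, A_51_P320304, read -1.41, -1.74 and -1.46 on the siGFP arrays and -2.22, -2.47 and -2.09 on the circHIPK3 siRNA arrays. All treated arrays were below all controls, with a change of -0.72 ± 0.14 (SE) that was not called here and was called in 6 of 17 other settings. Among these is the setting without circHIPK3 siRNA replicate 1 (-0.74), which puts the groups on separate slides. The dimmer one, A_55_P2169784, read -3.01, -3.28 and -3.16 on the siGFP arrays and -3.04, -3.10 and -2.75 on the circHIPK3 siRNA arrays. Those groups overlapped, at a change of 0.19 ± 0.13 (SE), which lay between 0.08 and 0.26 over the other settings. With both probes averaged, the Plod1 change was -0.27.

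Taken on the same array, where the scaling cancels, the brighter minus the dimmer Plod1 probe lay between 1.54 and 1.69 on the siGFP arrays and read 0.81, 0.64 and 0.66 on the circHIPK3 siRNA arrays. The difference between the probes thus shrank by 0.91 without any overlap of the groups. Of 4432 genes with at least 2 kept probes, 38 (0.857%) had a gap at least as wide between the changes of their 2 brightest probes, and the median gap was 0.10. For P4ha1 the probes differed by 0.37, 0.55 and 0.50 in siGFP and by 0.45, 0.58 and 0.34 in circHIPK3 siRNA, a gap of 0.02 between their changes. Where on the transcripts these probes lie is not known here, so which of the Plod1 readings stands for the coding messenger is not settled.

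**Figure D2:**
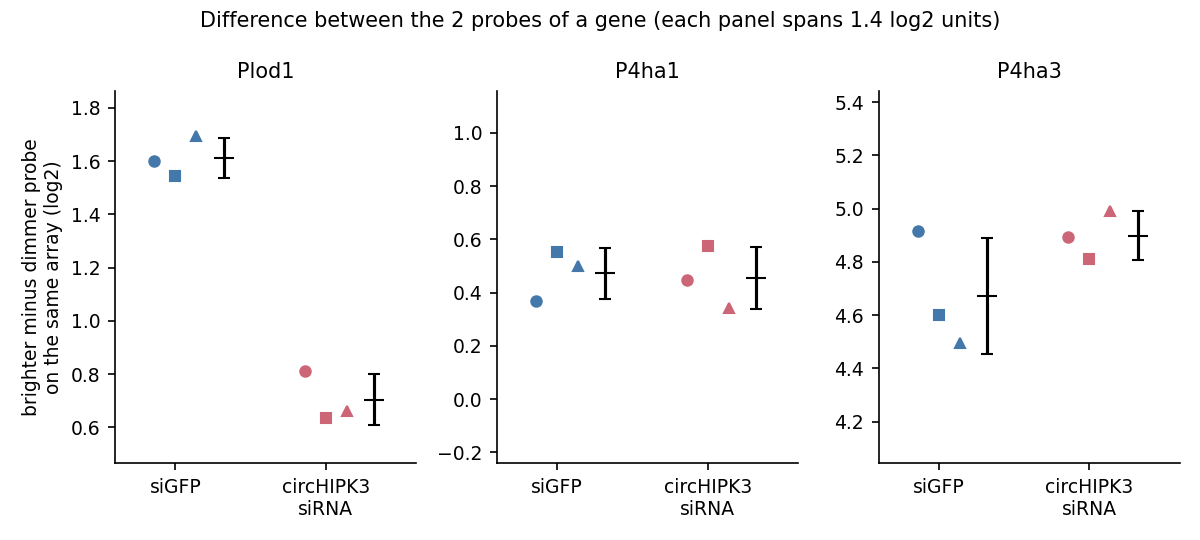
Log2 signal of the brighter minus the dimmer probe of the same gene on the same array, by group, for the 3 genes with 2 probes. Points are arrays (circle, square and triangle for replicates 1, 2 and 3), and bars are the mean and SD of 3 arrays. For Plod1 the difference is 1.54 to 1.69 in siGFP and 0.64 to 0.81 in circHIPK3 siRNA, while the P4ha1 and P4ha3 groups overlap.

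Plod2, which encodes the lysyl hydroxylase that acts on collagen telopeptides, read -2.48, -2.09 and -2.26 on the siGFP arrays and -1.92, -2.03 and -1.99 on the circHIPK3 siRNA arrays. The treated arrays all lay above the controls, but replicate 2 of each group lay close together. The change was 0.30 ± 0.12 (SE), 0.21 relative to all genes, and it was not called under any of the 17 other settings, where it ranged from 0.19 (median scaling, or without siGFP replicate 1) to 0.39. Plod2 was thus on the other side of zero from Plod3. In all, the groups did not overlap for 3 of the 7 members by their brighter probe (Plod1, Plod2 and Plod3), where 25.9% of all genes tested had groups that did not overlap.

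None of the prolyl 4-hydroxylase genes was called, for the alpha or the beta subunit. P4ha1, the major catalytic subunit in most tissues, read -2.94, -2.52 and -2.82 on the siGFP arrays and -2.27, -2.26 and -2.63 on the circHIPK3 siRNA arrays by its brighter probe. Replicate 3 of the treated group fell within the control range. The change was 0.37 ± 0.15 (SE), and the dimmer probe gave 0.39 ± 0.12 (SE) from -3.31, -3.07 and -3.32 to -2.71, -2.84 and -2.97, without overlap. P4ha1 was called in none of 17 other settings (0.27 to 0.50).

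P4ha2, the alternative catalytic subunit, read 1.54, 1.86 and 1.67 in siGFP and 2.00, 2.13 and 1.74 in circHIPK3 siRNA, a change of 0.26 ± 0.14 (SE, 0.16 to 0.37 over the other settings) with overlapping groups. P4ha3, the third catalytic subunit, read 0.11, -0.37 and -0.35 in siGFP and -0.15, -0.20 and 0.28 in circHIPK3 siRNA by its brighter probe. That change of 0.18 ± 0.18 (SE) was no larger than its error and ran from 0.03 without circHIPK3 siRNA replicate 3 to 0.33 without siGFP replicate 1. The dimmer P4ha3 probe gave -0.05 ± 0.12 (SE), a sign that turned without circHIPK3 siRNA replicate 1, so P4ha3 has no settled direction.

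P4hb, which encodes protein disulfide isomerase and serves both as the beta subunit of prolyl 4-hydroxylase and as a general folding enzyme, read 5.20, 4.86 and 5.38 in siGFP and 4.82, 4.90 and 5.03 in circHIPK3 siRNA. The groups overlapped through siGFP replicate 2. The change was -0.23 ± 0.15 (SE), or -0.32 relative to the median of all genes, and it ran from -0.38 without siGFP replicate 2 to -0.12 without siGFP replicate 3, with no call in any other setting.

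**Figure D3:**
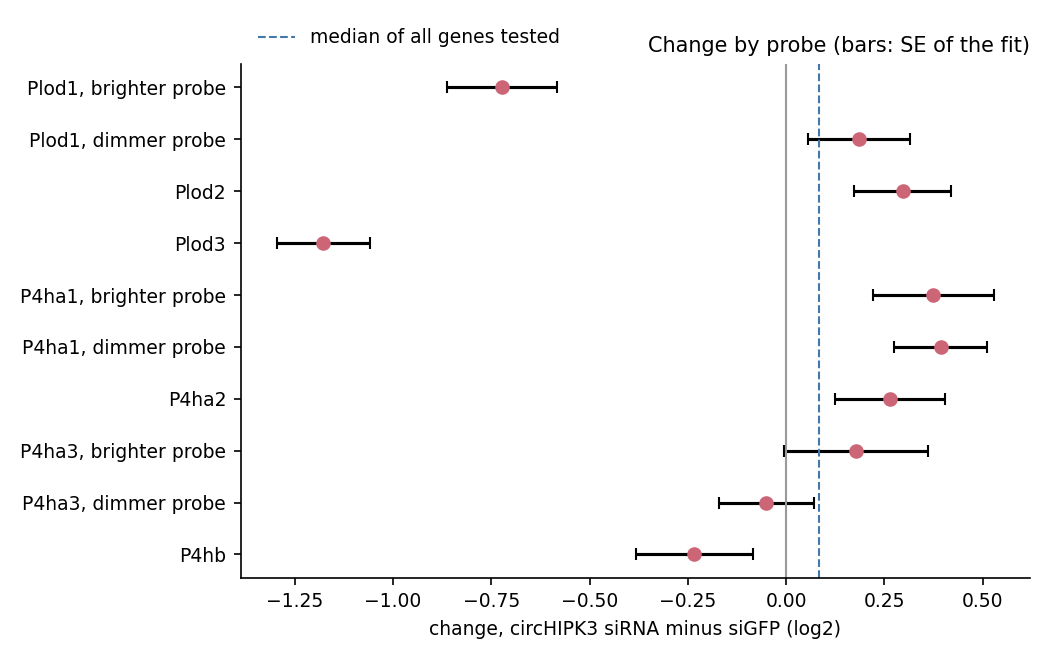
Change in log2 signal, circHIPK3 siRNA minus siGFP, for each of the 10 probes. Points are fitted changes from 3 arrays against 3, bars are the SE of the fit, the grey line is 0 and the dashed line is the median of all genes at 0.08. Plod3 and the brighter Plod1 probe lie at -1.18 and -0.72, and the other 8 probes lie between -0.23 and 0.39.

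The other genes of collagen biosynthesis were taken as lists, described by their counts and by their median change beside the 0.08 of all genes. Of 14 genes listed for procollagen modification, folding and related steps in the endoplasmic reticulum, Creb3l1, Mia3 and Tmem38b among them, 13 were measured. Of these, 1 was called lower, none higher and 12 not at all, beside 0.64% of all genes called lower. Their median change was 0.06, with 10 of 13 above 0, and its difference from the median of all genes (-0.03) had no settled sign. The gene called was Crtap, whose product forms the prolyl 3-hydroxylation complex with P3h1 and cyclophilin B. It read -0.0029, -0.08 and 0.16 on the siGFP arrays and -0.76, -0.71 and -0.51 on the circHIPK3 siRNA arrays, a change of -0.68 ± 0.11 (SE) and 1.61-fold, with a limma adjusted p of 0.0492 (0.0132 to 0.191 over the other settings). Its groups did not overlap. The call was lost in 9 of 17 other settings, in which the change lay between -0.78 and -0.62. These were slide as a fixed block (-0.78, resting on 1 treated array), slide as a random block (-0.70, limma adjusted p = 0.0596), the replicate block (-0.68, 0.0879) and no filter on dim probes (-0.68, 0.0889). The others left out siGFP replicate 1 (-0.70), 2 (-0.74) or 3 (-0.62) or circHIPK3 siRNA replicate 2 (-0.66) or 3 (-0.76). P3h2, a prolyl 3-hydroxylase gene, had the next smallest p at 0.80 ± 0.16 (SE, limma adjusted p = 0.0613; 0.52 with normexp) and groups that did not overlap, so the members of this list with the smallest p lay on opposite sides of zero. Fkbp10, which encodes a procollagen prolyl isomerase, gave 0.29 ± 0.11 (SE, limma adjusted p = 0.193; 0.14 with quantile normalization).

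Collagen genes themselves were not called. Of 44 collagen chain genes, 32 were measured and none passed, with a median change of 0.22. Relative to all genes that median was 0.13, but 0.05 with quantile normalization, the value table, slide as a fixed block or without siGFP replicate 2, and 0.02 with normexp. Col26a1 gave 1.36 ± 0.32 (SE, limma adjusted p = 0.0883; 0.67 with normexp and 1.97 with slide as a fixed block). It read -6.12, -5.82 and -6.68 on the siGFP arrays, near the lowest signals well above background there (-7.10 to -6.75). Col20a1 gave -0.65 ± 0.18 (SE, limma adjusted p = 0.119), with -0.73 ± 0.15 (SE) by its second probe. Of 13 genes for extracellular procollagen processing and crosslinking, 11 were measured and none passed, with a median of 0.22. Relative to all genes it was 0.13, but -0.01 with quantile normalization or the value table and 0.01 with normexp or slide as a fixed block, and it ran from 0.07 without siGFP replicate 2 to 0.23 without circHIPK3 siRNA replicate 1. Among them Loxl2, a lysyl oxidase gene, gave 0.47 ± 0.16 (SE, limma adjusted p = 0.172), and its other 2 probes gave 0.28 and 0.20. Adamts3, which encodes a procollagen peptidase, was well above background on none of the siGFP arrays and its limma adjusted p was 0.101, so no fold is given.

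**Figure D4:**
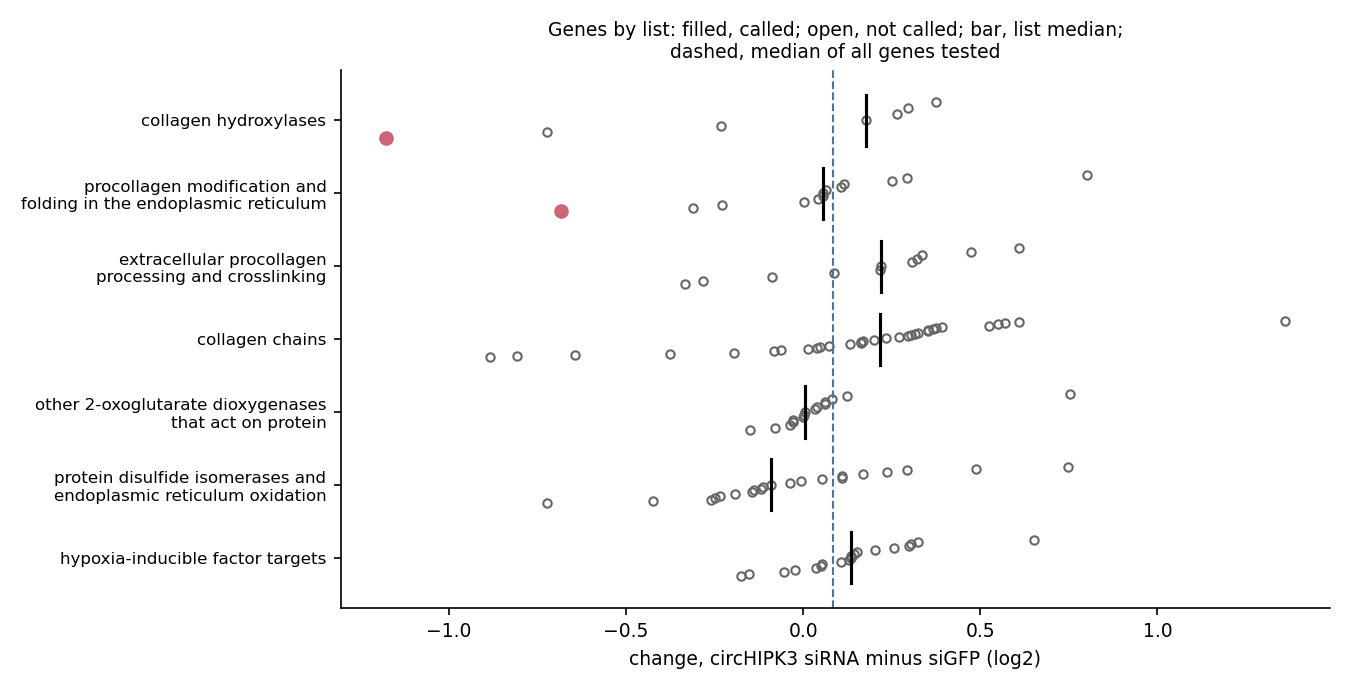
Change in log2 signal, circHIPK3 siRNA minus siGFP, of every measured gene in the hydroxylase family and in 6 lists of related genes. Each point is a gene, filled where called and open where not, black bars are list medians and the dashed line is the median of all genes at 0.08. The called genes are Plod3 at -1.18 and Crtap at -0.68.

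Enzymes that share the chemistry or the partners of the hydroxylases were also set beside them. None of 15 other 2-oxoglutarate dioxygenases that act on protein was called, and their median was 0.0045. Relative to all genes it was -0.08 (-0.09 to -0.0062 over the other settings), with 13 of 15 below the median of all genes. Egln3, the oxygen-sensing prolyl hydroxylase that is itself induced by hypoxia, gave 0.75 ± 0.25 (SE, limma adjusted p = 0.160) and 0.75 ± 0.17 (SE) by its second probe, and Riox2 gave 0.12 ± 0.09 (SE, limma adjusted p = 0.442). None of 21 measured genes listed for disulfide isomerases and oxidation in the endoplasmic reticulum, Mttp among them, was called, and their median was -0.09. Relative to all genes it was -0.18 (-0.22 to -0.10 over the other settings), with 14 of 21 below the median of all genes. Txndc5, which encodes a protein disulfide isomerase, missed the threshold at -0.72 ± 0.13 (SE, limma adjusted p = 0.0541), with all treated arrays below the controls. Mttp, the triglyceride transfer protein gene whose product also pairs with the P4hb subunit, lay at 0.49 ± 0.10 (SE, limma adjusted p = 0.0635), opposite in sign to P4hb. None of 19 measured genes for hypoxia-inducible factor (targets and the subunit genes Hif1a, Epas1 and Arnt) was called, with a median of 0.13. Relative to all genes it was 0.05 and its sign was not settled, at -0.06 without siGFP replicate 1, -0.02 without circHIPK3 siRNA replicate 2 and 0.19 without siGFP replicate 2. Ddit4 gave 0.65 ± 0.16 (SE, limma adjusted p = 0.0923) and Car9 gave 0.32 ± 0.13 (SE, limma adjusted p = 0.208; 0.13 with slide as a fixed block).

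The genes whose profile lay nearest to that of Plod3 were found by the root mean square difference over the 6 arrays, after subtraction of each gene's siGFP mean, among 17139 genes with a symbol. They were Bscl2 (0.083), the seipin gene of lipid droplets, Pofut2 (0.106), an O-fucosyltransferase gene, Zfp521 (0.117), a zinc finger gene, Serpini1 (0.122), the neuroserpin gene, and Cckar (0.144), a cholecystokinin receptor gene. Bscl2 read 0.99, 0.79 and 1.07 in siGFP and -0.10, -0.20 and -0.06 in circHIPK3 siRNA. All 5 were called lower, which the likeness to Plod3 brings with it. A second Serpini1 probe gave -0.17 ± 0.13 (SE) where the brighter one gave -1.15 ± 0.12 (SE), and the second Zfp521 probe gave -0.64 ± 0.15 (SE) where the brighter one gave -1.11 ± 0.11 (SE).

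**Figure D5:**
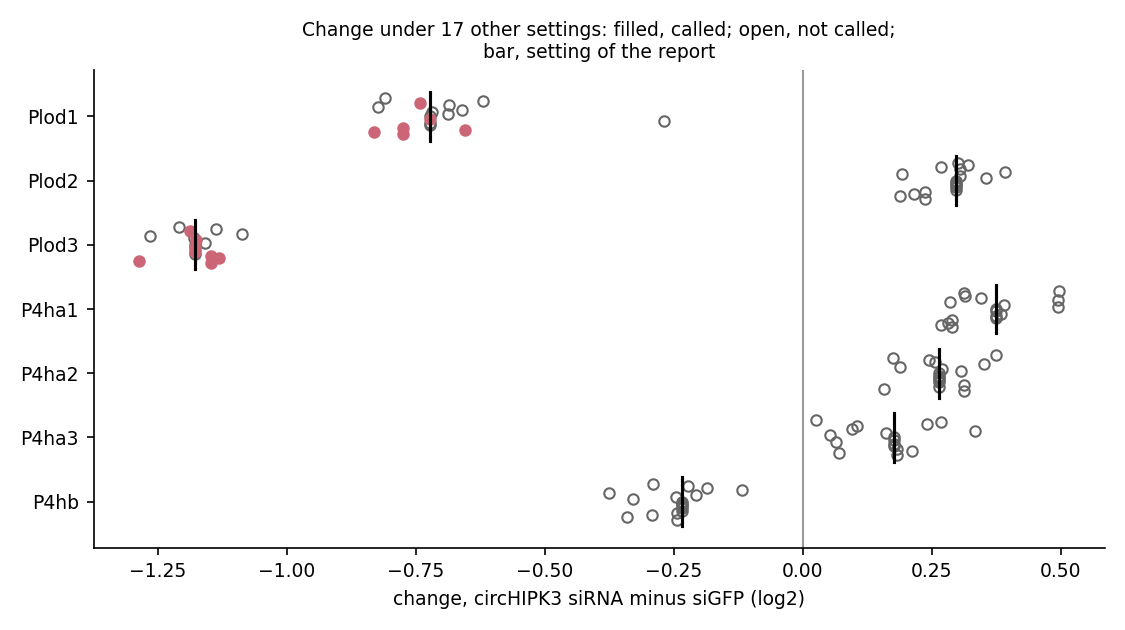
Change in log2 signal of the 7 hydroxylase genes under 17 other ways of processing or testing the arrays. Each point is a setting, filled where the gene was called and open where not, and the black bar is the value in the text. Plod3 is called in 9 settings and Plod1 in 6, the other 5 genes in none, and each gene stays on its side of zero. Points are the brightest probe of a gene, except in the setting that averages all its probes. The dimmer probes alone are not shown.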

How the data were processed

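Total RNA of 6 samples was labelled with Cy3 and hybridised to single-colour Agilent arrays. The deposited scanner files give intensity on a linear scale, background-subtracted by the scanner software per the file headers (Agilent Feature Extraction 11.0.1.1 in the submitters' processing notes), and flag spots that are well above background or not uniform. The authors also deposited a log2 value table of 31868 probes, whose normalization is not given in the sources used here. It was used as an alternative.

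Each array's 75th percentile was subtracted from its log2 processed intensities. Flagged spots were left out and a probe's spots averaged. A probe was kept if 1 group or both had it well above background on all 3 of their arrays. Accessions in the files were matched to a RefSeq table of GRCm38.p6, which named 27234 of 39429 probes. The files name another build, so gene coordinates from that table are not printed, and promoter coordinates are those of RefSeq. A gene was represented by its brightest probe. Groups were compared with limma 3.58.1 in R 4.3.3 (lmFit, eBayes, Benjamini-Hochberg adjustment over all genes). The code was checked on simulated data with known changes and independent noise. Those data held no slide effect, so they say nothing about the calls in these arrays.

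Members, lists and tests were chosen with earlier results of these data known. Named genes were all members, up to 6 called and 2 uncalled genes with the smallest p per list, the 5 genes nearest to Plod3, its protein-coding neighbours and Hipk3. The 17 alternatives were quantile normalization, median scaling, normexp (offset 50, on the median foreground since the mean is not a column used here), the value table, filters on dim probes, the mean of all probes, trend and robust variance, replicate and slide blocks, and each array left out.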

Additional observations from a re-analysis of the deposited data

How the results depend on the processing

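The count of 301 called genes became 607 with median scaling, 622 with trend and robust variance, 185 with the authors' value table and 125 with slide as a random block. With limma it was 0 without a filter on dim probes, with slide as a fixed block and with the replicate block (5631, 2676 and 5126 genes at an unadjusted p under 0.05), and it ranged from 0 to 1719 when 1 array was left out, the highest without circHIPK3 siRNA replicate 1, which puts the groups on separate slides. The 4 such settings with 0 had 3341 to 5062 genes at an unadjusted p under 0.05. The number of hydroxylase genes called, 1, became 2 through Plod1 with quantile normalization, median scaling, normexp, the value table, and trend and robust variance. It was 0 without a filter, with slide as a fixed block and with the replicate block, and ranged from 0 to 2 with 1 array left out. Called genes in the other lists, 1 in the main setting, numbered 2 with median scaling and normexp and 5 with trend and robust variance. They numbered 0 without a filter, with either slide block and with the replicate block, and ranged from 0 to 3 with 1 array left out.

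Whether the replicate numbers pair the samples is not settled. The labels do not say, and correlations over 3 arrays per group cannot decide it. Deviations of same-numbered samples correlated at -0.02, 0.27 and -0.13, and not every sample correlated best with its own number. Among 523 values of single genes under the alternatives, 9 changed sign and the causes were not tested. Znhit1 gave 0.0085 with quantile normalization, 0.0088 with the value table, 0.0088 with all probes averaged, 0.13 with slide as a fixed block and -0.109 to 0.0733 with 1 array left out. With 1 array left out, Vgf ranged from -0.203 to 0.0168 and the dimmer P4ha3 probe from -0.156 to 0.0094. Adamts3 gave -0.012 with normexp, but it was well above background on none of the siGFP arrays, so its difference has no measured sign in any setting.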
